A study of Danio rerio with 7 samples.

Results

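The genes described here are those whose name in the deposited table begins with eif1 to eif6 in upper or lower case, without the eif2ak kinases. This rule took 67 of 33735 genes and used no measured value. The genes were grouped by name into 12 initiation factor groups, and 1 more, eif1ad, which encodes a protein with an eIF1A-like domain, is not itself an initiation factor. The rule takes eif1ad in, so counts, medians and ranges given below for all initiation factor genes include it. The mean over libraries reached 1 FPKM, the filter used for testing, for 61 of the 67. FPKM counts fragments per kilobase of transcript at a common library size, so that levels can be set side by side between genes.

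Translation initiation begins when eIF2, carrying GTP and the initiator methionyl-tRNA, joins eIF1, eIF1A, eIF3 and eIF5 on the small ribosomal subunit. The cap-binding complex of eIF4E, eIF4G and the RNA helicase eIF4A then brings this assembly to the mRNA, and eIF5B helps join the large subunit. Supply is controlled at eIF2B, which reloads eIF2 with GTP and is blocked when eIF2 is phosphorylated, and at the eIF4E-binding proteins, which hold eIF4E away from eIF4G.

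All libraries came from sox10-positive cells sorted from dissociated zebrafish embryos; sox10 marks the neural crest and the otic vesicle at this stage. Embryos were kept at 28 °C and received the compound or its solvent, DMSO, between 50% epiboly and 15 somites. Values are given for 2 libraries of embryos injected with a ctr9 morpholino and exposed to 32 µM progesterone (experiments 1 and 2), 2 libraries of embryos injected with the same morpholino in DMSO (experiments 1 and 2), and 2 libraries of uninjected embryos in DMSO, whose columns are named by 5 ng and 10 ng. A ctr9 morpholino is an antisense oligonucleotide against Ctr9, a subunit of the PAF1 transcription elongation complex, and the labels name neither its dose nor a control morpholino. No column was matched to an uninjected progesterone library, so progesterone without the morpholino was not analysed here. No label says whether separate clutches gave the libraries of a group, and the p-values then cover only the spread between libraries, which may be technical.

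The libraries differed in ways that touch every gene below. Summed FPKM covers the 33735 genes and 92 spike-in rows, so it is not a sum over genes alone. It was 360250 and 218077 in the morpholino libraries with progesterone, 360406 and 356240 in those with DMSO, and 366907 and 356945 in the uninjected ones. Genes at 1 FPKM or more numbered 11776 and 9575 with progesterone, 13432 and 13055 with morpholino and DMSO, and 13181 and 13528 without injection, and the progesterone library of experiment 2 was the lowest on both measures. The number of sequenced fragments is unknown; steps in the low FPKM values put the depth of the other 5 libraries at 1.05 to 1.47 times that of the 5 ng library, with 1.24 and 1.05 for the progesterone pair. The median log2 fold change of all 13145 tested genes was -0.58 for progesterone against DMSO in morpholino-injected embryos, -0.67 for progesterone against uninjected, and -0.07 for the morpholino against uninjected in DMSO. A relative change below is therefore a log2 fold change minus that median, on the log2(FPKM + 1) scale. The targeted gene, ctr9 (ENSDARG00000009170), stood at 26.2 and 20.6 FPKM with progesterone, 42.2 and 36.7 FPKM with the morpholino in DMSO and 16.8 and 19.95 FPKM in uninjected cells; a morpholino can block a protein without lowering the transcript, so these values check no label. Of the neural crest markers, sox10 itself stood at 191 and 60.01 FPKM with progesterone, 160.2 and 125 FPKM in morpholino DMSO and 134 and 147 FPKM in uninjected cells, while foxd3 was at or near 0 in all libraries but the 5 ng one.

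Initiation factor genes were among the more abundant mRNAs of these cells. Together they took 0.942% and 1.08% of summed FPKM in the progesterone libraries, 1.11% and 1.06% in those with the morpholino and DMSO, and 1.15% and 1.28% in the uninjected libraries. These are shares of a sum that includes the spike-in rows, whose part in it was not worked out. Their median lay above the median of all tested genes by 2.59 and 1.95 on the log2 scale with progesterone, by 2.58 and 2.24 with the morpholino in DMSO, and by 2.77 and 2.47 without injection. The sum over the 67 genes was 3393 and 2362 FPKM with progesterone, 4012 and 3774 FPKM with the morpholino in DMSO, and 4215 and 4565 FPKM in uninjected cells. This deposited sum was lowest in both progesterone libraries and highest in both uninjected ones, with no overlap. The order did not hold on other scales: after median-ratio scaling the sum was 3658 and 4049 FPKM with progesterone, 3209 and 3426 FPKM in morpholino DMSO and 3494 and 3455 FPKM in uninjected cells, highest with progesterone, and the shares of summed FPKM with progesterone and with morpholino and DMSO overlapped.

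The 2 libraries of a group differed less for these genes than for the whole set of tested genes, most of which are less abundant. The median absolute log2 difference between them was 0.716 for the initiation factors and 0.778 for all tested genes with progesterone, 0.290 and 0.385 with morpholino and DMSO, and 0.156 and 0.261 in uninjected cells, with the initiation factors first each time. The progesterone pair was the most unequal for both.

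**Figure D1:**
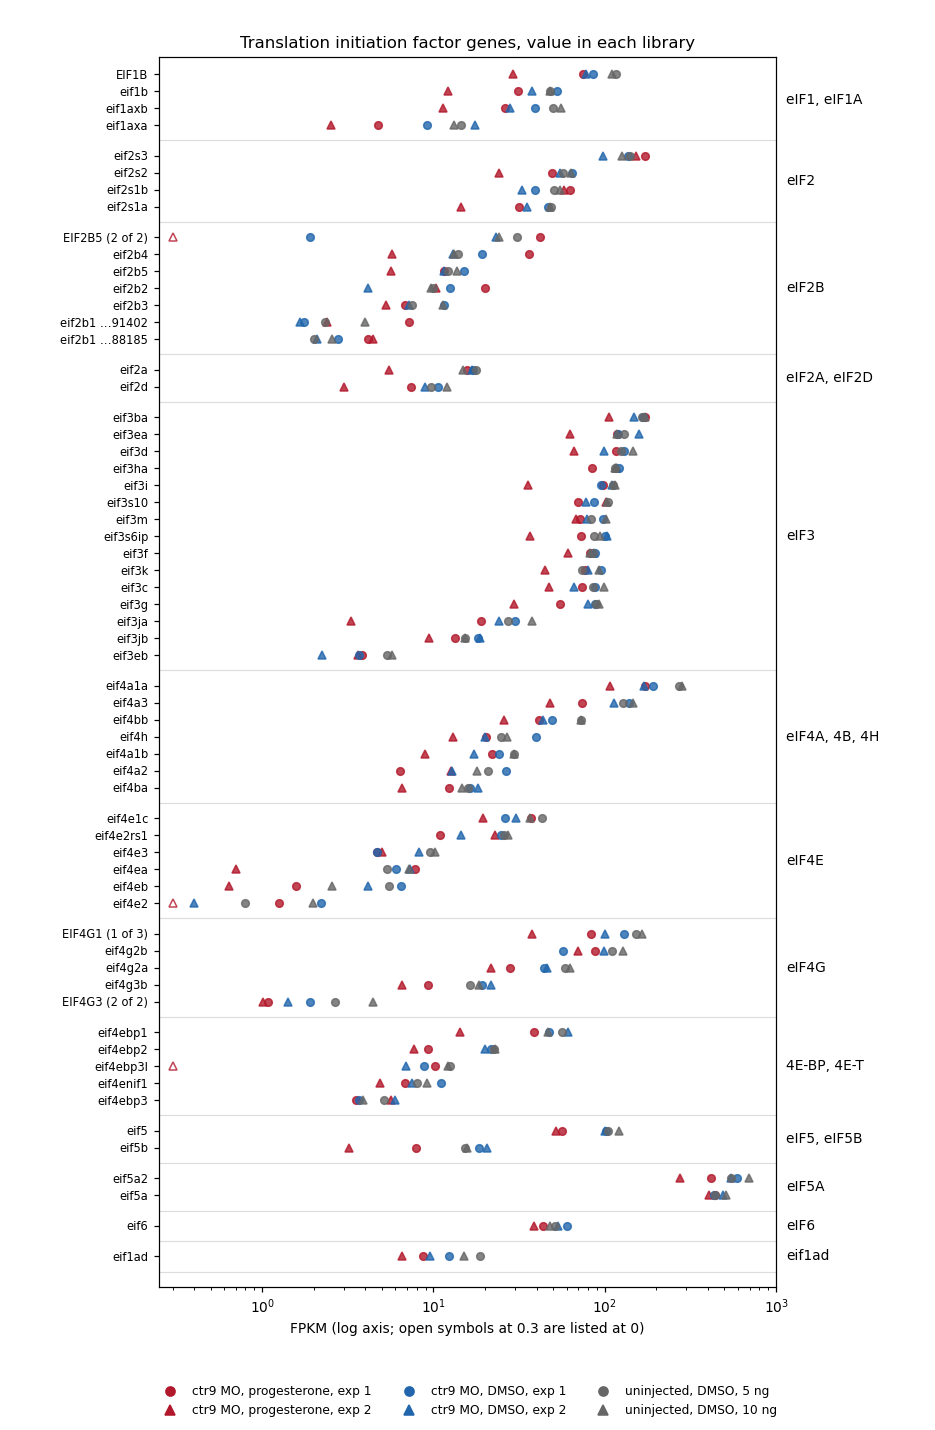
FPKM on a log axis (horizontal) of each initiation factor gene (vertical, by complex) in each of the 6 libraries; colour marks the group and symbol the library, and open symbols at the left edge are listed at 0. The eif5a pair is highest, at 275 to 694 FPKM, and eif4e2 is lowest among the tested genes, at 2.21 FPKM or less.

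Levels in uninjected cells ran over more than 2 orders of magnitude between factors. At the top were eif5a2 and eif5a, at 546 and 694 and at 442 and 509 FPKM, followed by the cap-complex helicase gene eif4a1a at 273 and 281 FPKM. The next were the eIF3 scaffold subunit gene eif3ba at 166 and 172 FPKM and EIF4G1 (1 of 3) at 153 and 164 FPKM. The eIF2B subunit genes stood lower than those of their substrate eIF2: mean FPKM over the uninjected pair was 2.28 to 27.4 for the 7 eIF2B genes and 48.3 to 133 for the 4 eIF2 genes, without overlap.

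Comparing progesterone with DMSO in morpholino-injected embryos asks what the compound does to these genes in cells that already carry the morpholino. No initiation factor gene passed the test: 0 of 61 were called higher or lower by limma (0% of all tested genes in either direction), and the lowest adjusted p among them was 0.153. By unadjusted p under 0.05, 1 gene was higher and 13 were lower, against 1.88% and 19.8% of all tested genes. The libraries did not overlap and lay higher with progesterone for 4 of 61 genes (6.87% of all genes) and lower for 35 (44.5%). After median-ratio scaling, which divides each library by its size factor, limma called 0 of 61 (0.00761% of all genes higher, 0% lower), 5 were higher and 4 lower by unadjusted p under 0.05 (7.46% and 9.49%), and 17 were higher and 13 lower without overlap (20.1% and 24.3%). The 5 that were higher were eif2s1b, eif2s3, both eif2b1 genes and eif2b2, and the 4 that were lower were eif1axa, eif4eb, eif4g3b and eif5b, all chosen by this count and so after their values were seen. Some of the low progesterone pairs described below were still below both morpholino DMSO libraries after scaling. They were those of eif1axa, eif1b, eif2d, eif3ja, eif4a3, eif4eb, EIF4G1 (1 of 3), eif4g3b, eif4ebp2, eif5b and, by a narrow margin, eif5a2. Those of eif2s1a, eif2s2, eif2b3, EIF1B, eif1axb, eif4ba, eif4g2a, eif4ebp1, eif4enif1 and eif5 then overlapped them. That of eif4bb then lay above them.

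Measured against the median of all genes, 31 initiation factors lay above it and 30 below, with a median relative change of 0.00 and a range of -1.16 to 1.55. The middle of their distribution, between quartiles, spanned -0.31 to 0.28, narrower than the -0.49 to 0.50 of all genes. At the ends, 10 lay at least 0.5 above the median (24.8% of all genes did) and 9 at least 0.5 below (24.5%).

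The 2 progesterone libraries gave very different counts when each stood alone. With experiment 1 left out, 32 of 61 were called lower and 0 higher (28.4% and 1.79% of all genes), and after median-ratio scaling 4 were lower and 7 higher (11.5% and 8.23%). With experiment 2 left out, limma called 0 of 61 in either direction (0.0228% of all genes lower, 0.145% higher). A lone library is assumed in these fits to vary like those of the other groups.

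Setting progesterone with the morpholino against uninjected cells in DMSO joins both treatments in 1 comparison, and it shares its libraries with the others. Limma called 0 of 61 initiation factors in either direction (0% of all genes higher, 0.0152% lower), the lowest adjusted p was 0.116, and by unadjusted p under 0.05 there were 0 higher and 20 lower (1.74% and 23.1% of all genes). Groups did not overlap for 4 genes that were higher (5.91%) and 45 that were lower (53.1%) with progesterone. After median-ratio scaling limma called 0 of 61 (0.0685% of all genes higher, 0.0228% lower), 5 were higher and 5 lower by unadjusted p under 0.05 (7.42% and 8.76%), and 15 were higher and 19 lower without overlap (21.4% and 26.9%). The median relative change was -0.11, with 27 genes above and 34 below the median of all genes. Without experiment 1, 37 of 61 were called lower (31.1%) and 0 higher (1.65%), and without experiment 2, 0 were called (0.198% lower, 0.251% higher). After median-ratio scaling, 6 were lower and 8 higher without experiment 1 (10.6% and 7.45%).

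The morpholino against no injection, both in DMSO, asks what injection of this morpholino does without the compound. Again 0 of 61 were called in either direction by limma (0% of all genes higher, 0.0152% lower), the smallest adjusted p was 1, and 0 passed an unadjusted p under 0.05 (1.4% of all genes higher, 2.67% lower). Groups did not overlap for 8 genes that were higher (16.5%) and 24 that were lower (26.2%) with the morpholino. After median-ratio scaling these were 11 (22.8%) and 19 (22%), and by unadjusted p under 0.05 limma had 0 higher (1.76%) and 2 lower (2.39%), eif4a1a and eif4bb. The median relative change was -0.05, with 24 genes above and 37 below. In all, 0 of 61 lay 0.5 or more above the median of all genes (14.2% did), and 11 lay at least 0.5 below it (15.1%).

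Markers of other cell types differed between the same groups in deposited FPKM, the only scale used for them here. Median-ratio scaling, which was not applied to the marker sums, raises the progesterone libraries relative to the others. Orders with progesterone lowest, such as those of the epidermal and otic sums, may therefore not hold after scaling. The 5 neural markers summed to 10.1 to 14.1 FPKM in the progesterone libraries, 80.4 to 101 FPKM with the morpholino in DMSO and 48.9 to 72.6 FPKM in uninjected cells. All 5 were lower with progesterone without overlap, as were 44.5% of all genes against morpholino DMSO and 53.1% against uninjected. The gene neurog1 was at 0 in both progesterone libraries. The 4 epidermal markers summed to 18.9 to 19.6 FPKM with progesterone, 39.9 to 107 FPKM in morpholino DMSO and 30.2 to 38.8 FPKM in uninjected cells. The 5 otic markers summed to 16.8 to 20.6 FPKM with progesterone, 21.1 to 27.7 FPKM in morpholino DMSO and 50.4 to 60.1 FPKM in uninjected cells. They did not move together. Most of the progesterone sum was oc90, at 16.9 and 12.7 FPKM, against 7.12 and 5.02 FPKM in morpholino DMSO and 24.4 and 21.6 FPKM in uninjected cells. It was higher with progesterone than in morpholino DMSO without overlap (6.87% of all genes). The others, stm, eya1, dlx3b and pax2a, were lower without overlap (44.5% of all genes), with dlx3b at 0 in both progesterone libraries. The 8 neural crest markers found summed to 307 to 847 FPKM with progesterone, 458 to 505 FPKM in morpholino DMSO and 546 to 602 FPKM in uninjected cells. Part of the highest sum was snai1b, at 303 FPKM in progesterone experiment 1 and 66.5 to 103 FPKM elsewhere. With progesterone against uninjected, sox9b was higher without overlap (5.91% of all genes) and ETS1 lower (53.1%), while the others overlapped. The 4 muscle markers summed to 1.42 FPKM or less everywhere. The 5 blood and endothelium markers summed to 3.10 to 12.9 FPKM with progesterone, 22.8 to 35.4 FPKM in morpholino DMSO and 47.0 to 61.2 FPKM in uninjected cells, 3 steps without overlap. Most of this was fli1a, an endothelial gene that neural crest cells can also express, at 12.8 and 3.10 FPKM with progesterone, 35.2 and 22.4 FPKM in morpholino DMSO and 45.3 and 59.5 FPKM in uninjected cells, while the globin gene hbbe1.1 was listed at 0 in all 6 libraries. The 3 notochord and endoderm markers found summed to 2.53 FPKM or less. The part of these cells in the initiation factor values was not tested. In libraries of many cells, fewer cells of a type and less RNA per cell cannot be told apart.

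**Figure D2:**
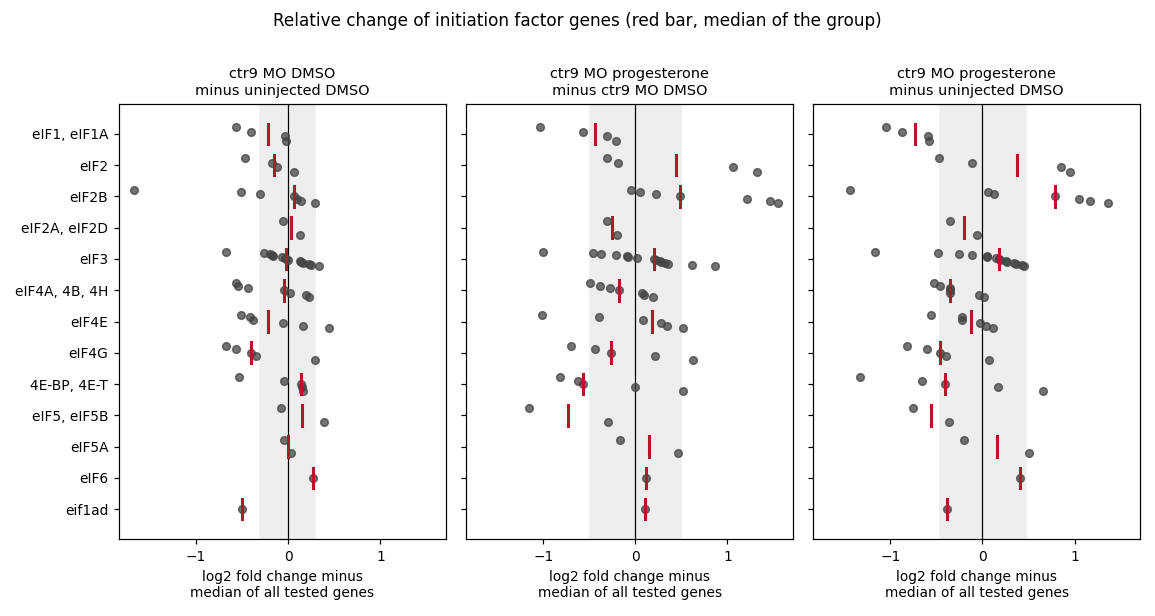
Relative change (horizontal, log2 fold change minus the median of all tested genes) of each tested gene (points) by group of factors (vertical) in the 3 comparisons; red bars are group medians and the grey band runs between the quartiles of all tested genes. With progesterone, the eIF2B and eIF2 medians lie to the right, at 0.49 and 0.44 against morpholino DMSO, and the eIF5 with eIF5B and the 4E-binding medians to the left, at -0.73 and -0.57.

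The eIF2 subunits and their exchange factor eIF2B held the genes that were highest with progesterone relative to all genes. In each comparison with progesterone, 2 of 4 eIF2 genes and 2 of 7 eIF2B genes made up the 4 initiation factors that were higher without overlap (6.87% of all genes against morpholino DMSO, 5.91% against uninjected). After median-ratio scaling 17 and 15 initiation factors were higher without overlap (20.1% and 21.4%), of which 2 and 2 were eIF2, 3 and 3 eIF2B and 7 and 6 eIF3 genes, so that eIF2 and eIF2B no longer made up the set. None of these genes was called. The clearest was eif2s1b, 1 of 2 genes for eIF2 alpha, the subunit whose phosphorylation slows initiation. It stood at 62.7 and 57.9 FPKM with progesterone, against 39.1 and 32.8 FPKM in morpholino DMSO libraries and 50.6 and 55.04 FPKM in uninjected libraries. Both progesterone libraries lay above all 4 others, and both morpholino DMSO libraries lay below all others. Against morpholino DMSO its log2 fold change was 0.73 ± 0.27 (SE, n = 2 against 2, limma adjusted p = 0.205), a relative change of 1.32.

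The other eIF2 alpha gene, eif2s1a, did not share this order. It stood at 31.5 and 14.5 FPKM with progesterone, 46.4 and 35.2 FPKM with the morpholino in DMSO and 48.4 and 48.2 FPKM in uninjected cells, and the progesterone libraries lay below all others. The ratio of eif2s1b to eif2s1a was 1.99 and 4.0 with progesterone, 0.844 and 0.931 with morpholino and DMSO, and 1.05 and 1.14 in uninjected cells. A ratio within 1 library does not depend on how that library was scaled, but how the authors' counting shared reads between such similar genes is not known, so levels of the pair are uncertain.

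The gamma subunit gene eif2s3, which encodes the GTP- and tRNA-binding part of eIF2, stood at 172 and 152 FPKM with progesterone, 137 and 97.6 FPKM with the morpholino in DMSO and 141 and 126 FPKM in uninjected cells. The progesterone libraries were above all others, with a relative change of 1.06 against morpholino DMSO (log2 fold change 0.48 ± 0.28, limma adjusted p = 0.345) and 0.95 against uninjected. The beta subunit gene eif2s2 stood at 48.9 and 24.3 FPKM with progesterone, 64.6 and 54.7 FPKM in morpholino DMSO and 56.8 and 63.5 FPKM in uninjected cells, lowest with progesterone. The 3 subunits of eIF2 assemble in equal numbers, yet their mRNAs did not keep 1 order across groups.

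**Figure D3:**
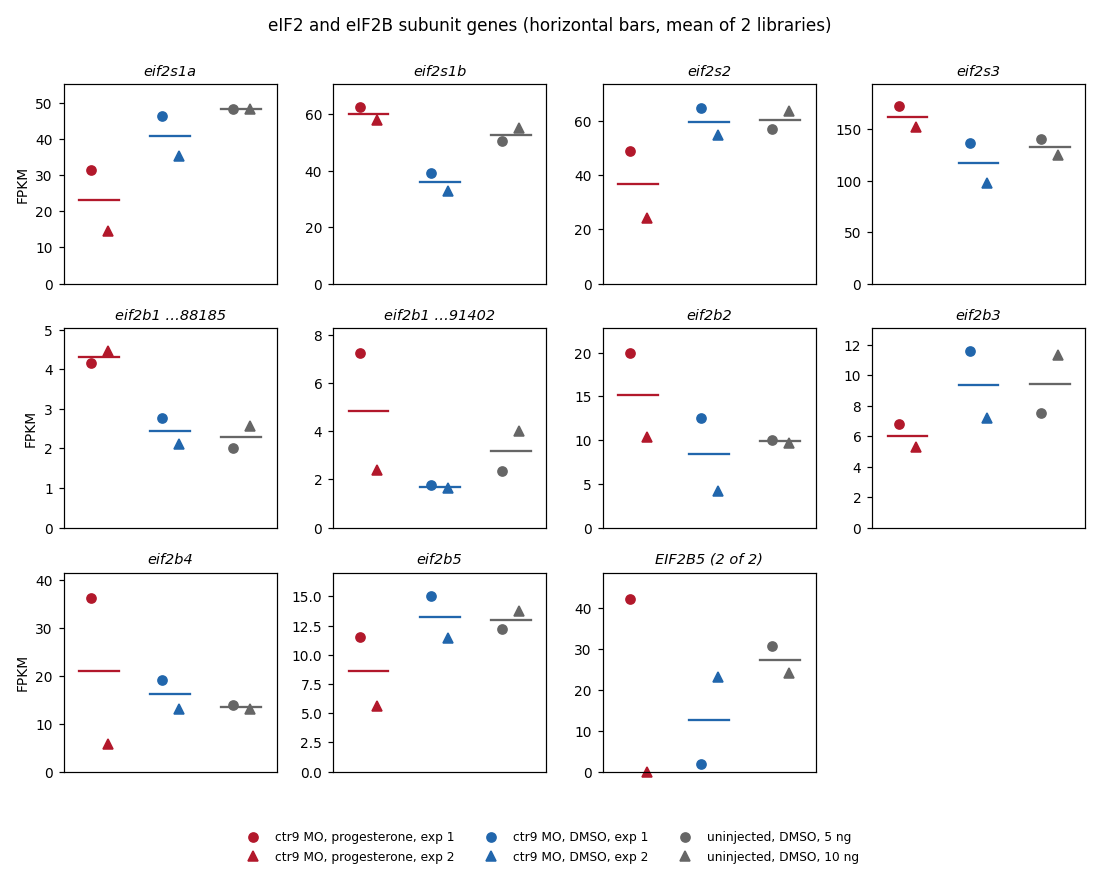
FPKM (vertical, from 0) of the 4 eIF2 and 7 eIF2B genes in each library, 1 panel per gene with its own scale; colour marks the group, symbol the library and the horizontal bar the mean of 2 libraries where neither is listed at 0. In the panels of eif2s1b, eif2s3 and both eif2b1 genes the progesterone points lie above the morpholino DMSO points, and in those of eif2s1a and eif2s2 below.

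Among eIF2B subunits, the regulatory alpha subunit has 2 genes named eif2b1 in the table. The first (ENSDARG00000088185) stood at 4.16 and 4.45 FPKM with progesterone, 2.76 and 2.10 FPKM with the morpholino in DMSO and 2.0 and 2.56 FPKM in uninjected cells, and the progesterone libraries were above all others. Its relative change was 1.22 against morpholino DMSO and 1.37 against uninjected (limma adjusted p = 0.340 and 0.279). The second (ENSDARG00000091402) stood at 7.22 and 2.40 FPKM in progesterone, 1.75 and 1.66 FPKM in DMSO with the morpholino and 2.33 and 3.98 FPKM without injection. It had the highest relative change of all initiation factors against morpholino DMSO, 1.55, but overlapped the uninjected libraries.

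The beta subunit gene eif2b2 stood at 19.9 and 10.3 FPKM with progesterone, 12.6 and 4.15 FPKM with the morpholino in DMSO and 9.99 and 9.71 FPKM in uninjected cells. It overlapped the morpholino DMSO pair and lay just above the uninjected pair; its relative changes were 1.46 and 1.17. For the catalytic epsilon subunit, eif2b5 stood at 11.5 and 5.65 FPKM with progesterone, 15.03 and 11.5 FPKM with morpholino and DMSO and 12.2 and 13.7 FPKM in uninjected libraries, with 1 progesterone library level with the lower morpholino DMSO library and 1 below all others.

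The differences in eif2b4 and EIF2B5 (2 of 2) were set by single libraries. The delta subunit gene eif2b4 stood at 36.2 and 5.70 FPKM with progesterone, the highest and the lowest of all 6 libraries, against 19.1 and 13.1 FPKM with the morpholino in DMSO and 13.9 and 13.1 FPKM in uninjected cells; its relative change against uninjected was 0.79, and -0.15 without experiment 1. The gene listed as EIF2B5 (2 of 2) stood at 42.1 and 0 FPKM with progesterone, 1.91 and 23.1 FPKM with the morpholino in DMSO and 30.6 and 24.1 FPKM in uninjected cells. Its low libraries were 1 of each morpholino pair, from different experiments. The gamma subunit gene eif2b3 stood at 6.82 and 5.29 FPKM with progesterone, 11.6 and 7.19 FPKM in morpholino DMSO and 7.51 and 11.3 FPKM in uninjected cells. Its progesterone libraries were lowest in FPKM but overlapped both other pairs after median-ratio scaling. The relative change was 0.05 against morpholino DMSO and 0.12 against uninjected.

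The start-codon factors eIF1 and eIF1A, which keep the scanning ribosome open until it meets a start codon, have 4 tested genes, none of which was called. All 4 genes were below the median of all genes in each comparison (50% of all genes lie above it). Their median relative change with progesterone was -0.44 against morpholino DMSO and -0.73 against uninjected, and it was -0.22 for the morpholino alone. After median-ratio scaling these medians were -0.30, -0.55 and -0.20. On that scale 2 of the 4, eif1axa and eif1b, still had progesterone pairs below the morpholino DMSO pair without overlap (24.3% of all genes). In eif1axa, 1 of 2 genes for eIF1A, the values were 4.77 and 2.51 FPKM with progesterone, 9.24 and 17.5 FPKM with the morpholino in DMSO and 14.5 and 13.2 FPKM in uninjected cells. Both progesterone libraries were below all others, with a relative change of -1.03 against morpholino DMSO (log2 fold change -1.61 ± 0.44, limma adjusted p = 0.155).

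The other eIF1A gene, eif1axb, stood in steps, at 26.3 and 11.4 FPKM with progesterone, 39.4 and 27.9 FPKM with the morpholino in DMSO and 49.7 and 55.4 FPKM in uninjected cells. No 2 of these groups overlapped, and the relative change was -0.87 for progesterone against uninjected and -0.57 for the morpholino against uninjected. The eIF1 genes had the same low progesterone pair: EIF1B (ENSDARG00000029445) stood at 74.8 and 29.1 FPKM in progesterone, 85.6 and 77.5 FPKM in DMSO with the morpholino and 116 and 111 FPKM without injection, and the gene listed as eif1b (ENSDARG00000012688), for which the current symbol is EIF1, at 31.2 and 12.2 FPKM with progesterone, 52.98 and 37.6 FPKM with morpholino and DMSO and 47.9 and 47.8 FPKM in uninjected libraries.

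The factors eIF5 and eIF5B act once the start codon is found, and neither gene passed the test. The gene eif5, for the protein that triggers GTP hydrolysis by eIF2, stood at 56.5 and 52.2 FPKM with progesterone, 101 and 100.4 FPKM with the morpholino in DMSO and 104 and 121 FPKM in uninjected cells. The subunit-joining GTPase gene eif5b stood at 7.96 and 3.23 FPKM with progesterone, 18.5 and 20.6 FPKM in morpholino DMSO and 15.3 and 15.6 FPKM in uninjected cells. For both genes the progesterone libraries lay below all others, after median-ratio scaling for eif5b only, and for eif5b the morpholino DMSO libraries lay above the uninjected ones. Against morpholino DMSO, eif5b had the lowest relative change of all initiation factors, -1.16 (log2 fold change -1.74 ± 0.43, limma adjusted p = 0.153).

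The eIF3 complex, the largest initiation factor and the platform that links the ribosome to the cap complex, was tested through 15 of its 19 genes. Most of it lay near the median of all genes: its median relative change was 0.21 for progesterone against morpholino DMSO, 0.18 against uninjected and -0.03 for the morpholino alone. Of the 15 genes, 9 were lower without overlap with progesterone than in morpholino DMSO (44.5% of all genes) and 0 were higher (6.87%), and after median-ratio scaling these counts were 3 (24.3%) and 7 (20.1%). None of the 15 was called. The most abundant was eif3ba, at 172 and 105 FPKM with progesterone, 168 and 148 FPKM with the morpholino in DMSO and 166 and 172 FPKM in uninjected cells. In deposited FPKM only the progesterone library of experiment 2 stood apart. After median-ratio scaling both progesterone libraries, at 185 and 180 FPKM, lay above all others, at 130 to 137 FPKM.

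The widest difference in the complex was that of eif3ja, 1 of 2 tested genes for the loosely bound eIF3j subunit. It was at 19.1 and 3.29 FPKM with progesterone, 29.7 and 24.1 FPKM with the morpholino in DMSO and 27.4 and 37.5 FPKM in uninjected cells, all progesterone values lowest. Its relative change against morpholino DMSO was -1.0, but -0.18 without experiment 2, so 1 library set its size. Its paralogue eif3jb stood at 13.4 and 9.43 FPKM in progesterone, 18.2 and 18.8 FPKM in DMSO with the morpholino and 15.3 and 15.3 FPKM without injection. The lead subunit gene of the complex, listed as eif3s10 and now named EIF3A, stood at 69.4 and 102 FPKM with progesterone, 87.1 and 77.8 FPKM with morpholino and DMSO and 105 and 103 FPKM in uninjected libraries, a relative change of 0.61 against morpholino DMSO that was 0.05 without experiment 2.

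The minor copy eif3eb stood at 3.83 and 3.61 FPKM with progesterone, 3.66 and 2.23 FPKM with the morpholino in DMSO and 5.39 and 5.70 FPKM in uninjected cells, where it lay highest without overlap. After median-ratio scaling its progesterone pair, at 4.13 and 6.19 FPKM, overlapped the uninjected pair, at 4.46 and 4.32 FPKM. Its relative change was -0.68 for the morpholino against uninjected. The gene eif3ha stood at 84.7 and 116 FPKM with progesterone, 121 and 118 FPKM in morpholino DMSO and 115.1 and 115.1 FPKM in uninjected cells, nearly level in 5 of 6 libraries. Median-ratio scaling changed which library stood apart. The progesterone values were then 91.3 and 199 FPKM, and the others lay at 87.1 to 107 FPKM. The 4 other eIF3 genes did not reach the filter: EIF3J (3 of 3), eif3bb and both genes named eif3hb had at most 4.59 FPKM in any library.

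The cap-dependent RNA helicase eIF4A and its helpers eIF4B and eIF4H unwind the 5′ end of mRNAs for scanning. The main eIF4A gene, eif4a1a, stood at 173 and 108 FPKM with progesterone, 191 and 169 FPKM with the morpholino in DMSO and 273 and 281 FPKM in uninjected cells. The gene eif4bb, for the factor that stimulates eIF4A, stood at 41.3 and 25.9 FPKM in progesterone, 48.9 and 43.8 FPKM in DMSO with the morpholino and 72.5 and 72.7 FPKM without injection. For both, all 4 morpholino libraries lay well below the tight uninjected pair. After median-ratio scaling they still lay below it, but the progesterone pair was then above the morpholino DMSO pair for both genes. For eif4a1a the scaled values were 186 and 185 FPKM against 152 and 153 FPKM, and for eif4bb 44.6 and 44.4 FPKM against 39.1 and 39.7 FPKM. The morpholino against uninjected in DMSO gave a relative change of -0.55 for eif4a1a and -0.56 for eif4bb (limma adjusted p = 1 for each), and leaving out any 1 library kept these between -0.62 and -0.51.

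Within the same group eif4ba, the paralogue of eif4bb, stood at 12.3 and 6.57 FPKM with progesterone, 16.3 and 18.1 FPKM with the morpholino in DMSO and 15.96 and 14.8 FPKM in uninjected cells, lowest with progesterone. The helicase gene eif4a3, whose protein belongs to the exon junction complex rather than to the cap complex, stood at 73.4 and 47.6 FPKM with progesterone, 139 and 113 FPKM with morpholino and DMSO and 128 and 146 FPKM in uninjected libraries. Its progesterone libraries were below all others, with a relative change of -0.53 against uninjected. The eIF4H gene stood at 20.2 and 12.98 FPKM with progesterone, 39.8 and 19.9 FPKM in morpholino DMSO and 24.9 and 26.97 FPKM in uninjected cells, and the morpholino DMSO pair spanned the uninjected pair.

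Cap binding itself was spread over several eIF4E genes. The most abundant was eif4e1c, at 37.04 and 19.4 FPKM with progesterone, 26.1 and 30.2 FPKM with the morpholino in DMSO and 43.00 and 36.8 FPKM in uninjected cells. Its progesterone pair overlapped both others. The gene eif4ea stood far lower, at 7.86 and 0.707 FPKM with progesterone, 6.03 and 7.33 FPKM with the morpholino in DMSO and 5.33 and 7.18 FPKM in uninjected cells. Its relative eif4eb stood at 1.58 and 0.637 FPKM in progesterone, 6.47 and 4.13 FPKM in DMSO with the morpholino and 5.53 and 2.54 FPKM without injection. For eif4eb the progesterone libraries were below all others, with a relative change of -1.01 against morpholino DMSO. For eif4ea 1 progesterone library was the highest of 6 and the other the lowest.

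The eIF4E2 class, which in mammals binds caps without supporting initiation by eIF4G, was carried by eif4e2rs1 at 10.98 and 22.9 FPKM with progesterone, 24.8 and 14.5 FPKM with the morpholino in DMSO and 25.7 and 27.2 FPKM in uninjected cells. Its uninjected values were the highest in deposited FPKM and the others mixed. After median-ratio scaling the progesterone library of experiment 2 was highest, at 39.3 FPKM against 21.3 and 20.6 FPKM in uninjected cells. The gene eif4e2 stood at 1.25 and 0 FPKM with progesterone, 2.21 and 0.398 FPKM with morpholino and DMSO and 0.800 and 1.98 FPKM in uninjected libraries, with overlapping groups. The gene eif4e3 stood at 4.72 and 4.98 FPKM with progesterone, 4.66 and 8.19 FPKM in morpholino DMSO and 9.58 and 10.2 FPKM in uninjected cells, highest in uninjected cells without overlap. After median-ratio scaling its progesterone pair, at 5.09 and 8.54 FPKM, overlapped the uninjected pair, at 7.94 and 7.69 FPKM. The gene eif4e1b, known in vertebrates from oocytes, stayed at 1.22 FPKM or less.

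The scaffold eIF4G, which holds eIF4E, eIF4A and eIF3 together, was tested through 5 genes. The morpholino DMSO pair lay below the uninjected pair without overlap for 4 of these 5 (26.2% of all genes), also after median-ratio scaling (22%), and the group's median relative change was -0.40. None of the 5 passed in that comparison, either by adjusted p or by unadjusted p under 0.05. Of the 4 lower genes, eif4g2b had a difference set by 1 library. Its relative change was -0.57, and -0.098 without morpholino DMSO experiment 1. After scaling, its higher morpholino DMSO library was at 90.3 FPKM and its lower uninjected library at 91.2 FPKM. Another, EIF4G3 (2 of 2), lay near the filter, at 1.90 and 1.42 FPKM in morpholino DMSO. The main gene, EIF4G1 (1 of 3), stood at 83.02 and 37.4 FPKM with progesterone, 129 and 101 FPKM with the morpholino in DMSO and 153 and 164 FPKM in uninjected cells. These are 3 steps without overlap, with a log2 fold change of -1.49 ± 0.41 for progesterone against uninjected (limma adjusted p = 0.136) and a relative change of -0.82.

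The eif4g2 genes encode a shortened eIF4G that lacks the eIF4E-binding part and serves cap-independent initiation. Of the pair, eif4g2a stood at 27.8 and 21.8 FPKM with progesterone, 44.1 and 45.9 FPKM with the morpholino in DMSO and 58.7 and 63.1 FPKM in uninjected cells, again 3 steps. For progesterone against uninjected it had the smallest p of all initiation factors (log2 fold change -1.27 ± 0.28, limma adjusted p = 0.116). Its paralogue eif4g2b stood at 87.3 and 69.7 FPKM in progesterone, 57.3 and 99.4 FPKM in DMSO with the morpholino and 110.1 and 128 FPKM without injection, with the progesterone pair inside the morpholino DMSO pair. The eif4g2b to eif4g2a ratio was 3.14 and 3.20 with progesterone, 1.30 and 2.17 with morpholino and DMSO, and 1.87 and 2.03 in uninjected cells.

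The eif4g3 genes went different ways. In eif4g3b the values were 9.27 and 6.57 FPKM with progesterone, 19.2 and 21.6 FPKM with the morpholino in DMSO and 16.4 and 18.5 FPKM in uninjected cells, so that the morpholino DMSO pair was the highest and the progesterone pair the lowest. The relative change of eif4g3b against morpholino DMSO was -0.69 (limma adjusted p = 0.153). The gene EIF4G3 (2 of 2) stood at 1.08 and 1.02 FPKM with progesterone, 1.90 and 1.42 FPKM with morpholino and DMSO and 2.67 and 4.43 FPKM in uninjected libraries, and EIF4G1 (2 of 3) was listed at 0 in all 6 libraries.

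**Figure D4:**
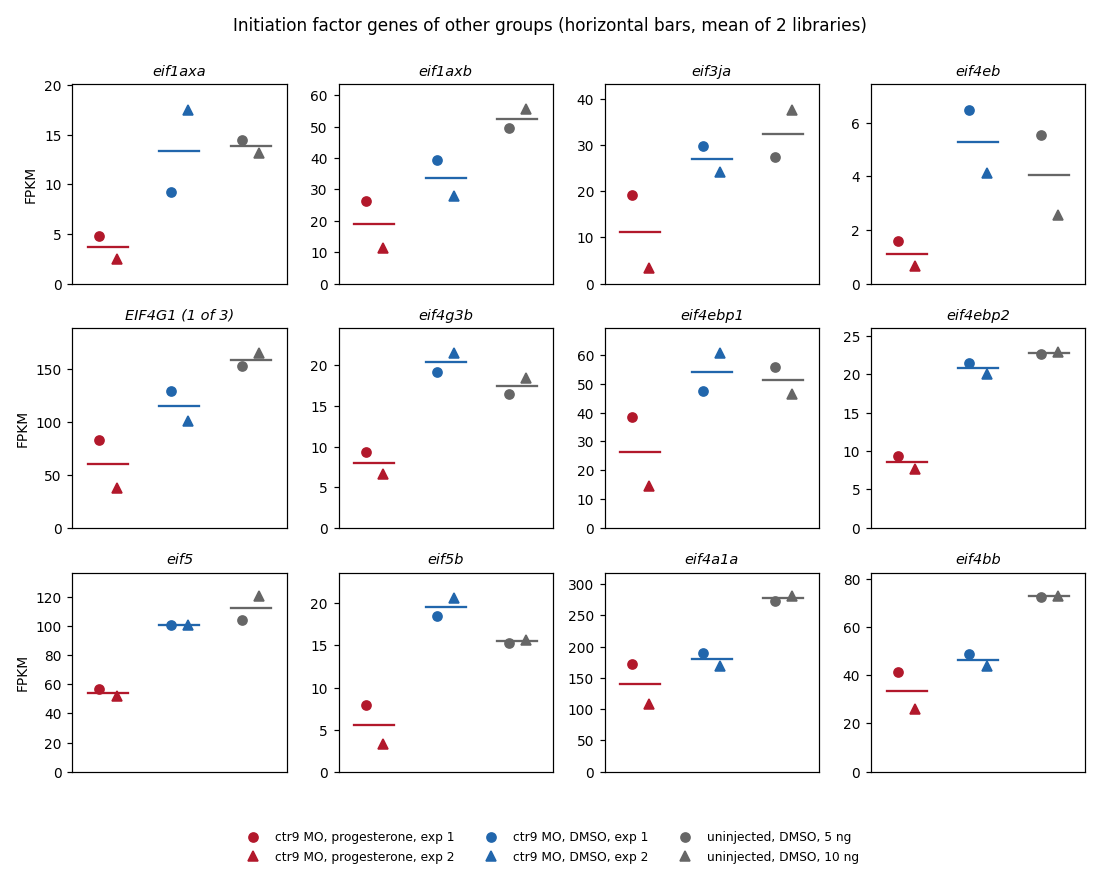
FPKM (vertical, from 0) of 12 genes of other factor groups in each library. Colour marks the group, symbol the library and the bar the mean of 2 libraries. The genes were picked after their values were seen to show group differences, and are not all of those with large ones. In eif4a1a, eif4bb and EIF4G1 (1 of 3) the uninjected points lie above all morpholino points, and in eif4ebp2, eif5 and eif5b the progesterone points lie below all others.

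The proteins that restrain eIF4E have 5 tested genes, none of which was called. In eif4ebp1, a target of mTOR kinase, the values were 38.6 and 14.4 FPKM with progesterone, 47.6 and 60.7 FPKM with the morpholino in DMSO and 56.04 and 46.5 FPKM in uninjected cells. In eif4ebp2 they were 9.35 and 7.66 FPKM with progesterone, 21.5 and 20.1 FPKM in morpholino DMSO and 22.6 and 22.9 FPKM in uninjected cells. Both progesterone libraries lay below the other 4 for each gene, after median-ratio scaling for eif4ebp2 only, and the eif4ebp2 pairs were the tightest of the group. Its log2 fold change was -1.20 ± 0.30 against morpholino DMSO and -1.33 ± 0.30 against uninjected (limma adjusted p = 0.153 and 0.117), relative changes of -0.62 and -0.66.

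The gene eif4ebp3 stood at 3.51 and 5.63 FPKM with progesterone, 3.69 and 5.98 FPKM with the morpholino in DMSO and 5.14 and 3.90 FPKM in uninjected cells, the 3 pairs overlapping. The gene eif4ebp3l stood at 10.2 and 0 FPKM in progesterone, 8.79 and 6.93 FPKM in DMSO with the morpholino and 12.5 and 12.2 FPKM without injection, so that the uninjected pair was above all others, 1 progesterone library was listed at 0 and the other lay between the remaining pairs. The eIF4E transporter gene eif4enif1 encodes a protein that carries eIF4E into the nucleus and represses bound mRNAs. It stood at 6.81 and 4.89 FPKM with progesterone, 11.1 and 7.51 FPKM with morpholino and DMSO and 8.04 and 9.17 FPKM in uninjected libraries. The progesterone pair was lowest in FPKM. After median-ratio scaling it overlapped the morpholino DMSO pair and lay above the uninjected pair. The relative change was 0.00 against morpholino DMSO and 0.17 against uninjected.

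The eIF5A genes encode a hypusine-modified factor now known mainly for helping ribosomes through difficult peptide bonds, and their mRNAs were the most abundant of the set. In eif5a the values were 442 and 408 FPKM with progesterone, 432 and 489 FPKM with the morpholino in DMSO and 442 and 509 FPKM in uninjected cells, with 1 progesterone library level with the lower uninjected one and 1 below all others. After median-ratio scaling both progesterone libraries lay above all others; the relative change was 0.47 against morpholino DMSO and 0.51 against uninjected. Its paralogue eif5a2 stood at 415 and 275 FPKM with progesterone, 590.4 and 547 FPKM in morpholino DMSO and 546 and 694 FPKM in uninjected cells, lowest with progesterone. After median-ratio scaling its progesterone pair, at 448 and 471 FPKM, lay just below the morpholino DMSO pair, at 472 and 497 FPKM. It then overlapped the uninjected pair, at 452 and 525 FPKM. The scaled relative change of eif5a2 against morpholino DMSO was 0.00. The eif5a2 to eif5a ratio was accordingly 0.939 and 0.673 with progesterone, against 1.37 and 1.12 in those with DMSO and the morpholino, and 1.23 and 1.36 in uninjected cells, so that the order of the 2 genes was turned round in both progesterone libraries.

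**Figure D5:**
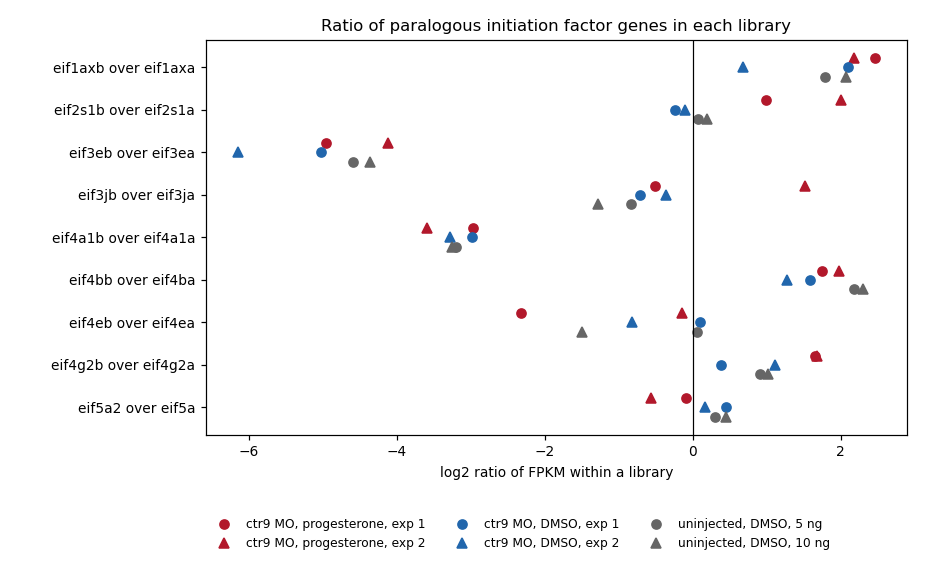
Ratio of FPKM of 2 paralogues within each library (horizontal, log2), for 9 pairs of initiation factor genes (vertical); colour marks the group and symbol the library. The eif2s1b to eif2s1a ratio lies to the right of all other libraries in both progesterone libraries and the eif5a2 to eif5a ratio to the left.

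The remaining pairs gave smaller or less regular differences. The eif4bb to eif4ba ratio was 3.35 and 3.94 with progesterone, 3.0 and 2.42 with morpholino and DMSO, and 4.54 and 4.93 in uninjected cells, so that all 3 groups were apart. The eif1axb to eif1axa ratio was 5.51 and 4.54 with progesterone, 4.27 and 1.6 with morpholino and DMSO, and 3.43 and 4.21 in uninjected cells, highest with progesterone. The eif3eb to eif3ea ratio was 0.0323 and 0.0575 with progesterone, 0.0308 and 0.0141 with morpholino and DMSO, and 0.0414 and 0.0484 in uninjected cells, the progesterone pair spanning the uninjected one. Ratios for the eif3j, eif4a1 and eif4e pairs overlapped between progesterone and morpholino DMSO libraries. The ratios are given as a description, with no test.

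The gene eif6, whose protein keeps the large ribosomal subunit from joining too early, stood at 43.8 and 38.6 FPKM with progesterone, 60.6 and 53.7 FPKM with the morpholino in DMSO and 51.5 and 47.7 FPKM in uninjected cells, highest with the morpholino in DMSO. After median-ratio scaling its progesterone pair, at 47.2 and 66.2 FPKM, overlapped the morpholino DMSO pair, at 48.5 and 48.7 FPKM. It then lay above the uninjected pair, at 42.7 and 36.1 FPKM. Both eif2a and eif2d encode factors that can deliver initiator tRNA without eIF2. The gene eif2a stood at 15.7 and 5.51 FPKM in progesterone, 17.02 and 16.7 FPKM in DMSO with the morpholino and 17.6 and 14.9 FPKM without injection, so that the progesterone pair overlapped the uninjected pair and, after median-ratio scaling, the morpholino DMSO pair too. The gene eif2d stood at 7.39 and 3.0 FPKM with progesterone, 10.6 and 8.90 FPKM with morpholino and DMSO and 9.70 and 11.9 FPKM in uninjected libraries, the progesterone pair lowest, also after scaling. The gene eif1ad stood at 8.65 and 6.53 FPKM with progesterone, 12.3 and 9.57 FPKM in morpholino DMSO and 18.6 and 14.98 FPKM in uninjected cells, highest in uninjected cells.

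Other genes of the pathway gave no calls either. Of 31 listed regulators of initiation, such as the eIF2 kinases, poly(A)-binding proteins and mTOR, 29 were found and 25 tested, and limma called 0 in any comparison. At an unadjusted p under 0.05, 0 were higher and 3 lower for progesterone against morpholino DMSO (1.88% and 19.8% of all genes), 0 and 1 for progesterone against uninjected (1.74% and 23.1%), and 1 and 0 for the morpholino against uninjected (1.4% and 2.67%). Their median relative change was 0.16, 0.10 and -0.11 in these comparisons. The 1 gene of the morpholino comparison was ppp1r15a, which encodes the stress-induced phosphatase subunit that removes phosphate from eIF2 alpha. It stood at 16.8 and 8.98 FPKM with progesterone, 24.1 and 22.3 FPKM with the morpholino in DMSO and 10.8 and 11.2 FPKM in uninjected cells, so the morpholino DMSO pair lay above all others (log2 fold change 1.01 ± 0.38 against uninjected, limma adjusted p = 1.0).

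Among the other regulators with the largest relative changes, pdcd4b, whose protein blocks eIF4A, stood at 41.8 and 68.9 FPKM with progesterone, 20.7 and 38.7 FPKM with the morpholino in DMSO and 48.9 and 59.6 FPKM in uninjected cells, the progesterone pair above the morpholino DMSO pair. The helicase gene ddx3 stood at 7.76 and 2.37 FPKM in progesterone, 14.7 and 14.05 FPKM in DMSO with the morpholino and 21.4 and 28.1 FPKM without injection, in 3 steps without overlap. The poly(A)-binding protein gene pabpc1b was low, at 5.99 and 2.87 FPKM with progesterone, 2.51 and 0.929 FPKM with morpholino and DMSO and 2.46 and 5.83 FPKM in uninjected libraries, its progesterone pair above the morpholino DMSO pair.

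Of 21 listed elongation and termination factors, 16 were found and 13 tested, with 0 called; by unadjusted p under 0.05, 0 were higher and 1 lower for progesterone against morpholino DMSO (1.88% and 19.8% of all genes), 0 and 4 for progesterone against uninjected (1.74% and 23.1%), and 0 and 1 for the morpholino against uninjected (1.4% and 2.67%). Their median relative change was 0.14, 0.15 and -0.25 in these comparisons. The eEF1 subunit gene eef1g stood at 231 and 161 FPKM with progesterone, 144 and 137 FPKM in morpholino DMSO and 257 and 275 FPKM in uninjected cells, lowest with the morpholino in DMSO. The gene eef1e1, named as an eEF1 subunit, stood at 9.04 and 0.0861 FPKM in progesterone, 14.5 and 14.3 FPKM in DMSO with the morpholino and 14.8 and 12.1 FPKM without injection. Both progesterone libraries lay below all others, that of experiment 2 by far the lower. The eEF2 kinase gene eef2k, whose protein slows elongation, stood at 6.36 and 10.8 FPKM with progesterone, 8.11 and 6.56 FPKM with morpholino and DMSO and 8.93 and 7.77 FPKM in uninjected libraries, with overlapping groups.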

How the data were processed

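The authors deposited 1 table of FPKM per gene for 6 libraries, the unit being read from a stray header line in the file, which was removed (1 row). The table holds 33735 genes and 92 spike-in rows. The spike-in rows were left out of the tests but kept in summed FPKM. The submitters' processing notes name TopHat2 2.0.11, Cufflinks 2.2.1 and cutadapt, and builds hg19 and Zv9 without a role; no annotation version is named in the sources used. Per the labels' protocols, ribosomal RNA was depleted before a low-input library and paired reads of 100 bases.

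Columns were assigned to groups by name. Limma 3.58.1 in R 4.3.3 (lmFit on 3 group means, eBayes with trend) was run on log2(FPKM + 1). It covered the 13145 genes averaging 1 FPKM or more, had 3 residual degrees of freedom, and called genes at an adjusted p (Benjamini-Hochberg) up to 0.05. The fold changes on this scale understate low genes. The design counted on 7 libraries, and 6 were fitted. The test was checked only on simulated data with the same spread in every library. That check does not cover a group as unequal as the progesterone pair. All 67 genes matching the name rule are members; each member of the eIF2, eIF4E, eIF4G, eIF4E-binding and eIF5A groups at the filter, and in the other groups the most abundant member and those with the highest and lowest fold changes, are described in every library. For the lists of regulators and of elongation factors, the 3 genes with the largest relative changes are. The members and lists were chosen with earlier results of these data known. Current symbols were found for 58 of the 67 identifiers. Other pseudocounts, filters, scalings and left-out libraries were tried.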

Additional observations from a re-analysis of the deposited data

How the results depend on the processing

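No initiation factor was called in any comparison with another pseudocount, filter or scaling, with the 2 groups alone or without a trend. Over all genes, the morpholino against uninjected comparison called 2, and 0 with a pseudocount of 0.1, 1 with no filter, 1 with a mean of at least 5 FPKM and 0 to 0 when 1 library was left out. Progesterone against morpholino DMSO called 0, then 1 with median-ratio scaling and 0 to 3973 when 1 library was left out (22 without progesterone experiment 2). Scaled as well, a choice made after seeing the data, these were 2599 without experiment 1 and 26 without experiment 2. Progesterone against uninjected called 2, then 12 with median-ratio scaling, 0 with a pseudocount of 0.1, 1 with no filter, 28 with a mean of at least 5 FPKM, 0 with the 2 groups alone and 0 to 4304 when 1 library was left out (59 without experiment 2; scaled as well, 2369 and 77). Initiation factors called ran from 0 to 32 and from 0 to 37 in the 2 progesterone comparisons when 1 library was left out (11 and 14 without experiment 1 after scaling). The cause was not tested, and a lone library is assumed to vary like the other groups.

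The median relative change of initiation factors stayed between -0.09 and -0.02 for the morpholino, between -0.28 and 0.09 for progesterone against morpholino DMSO and between -0.42 and 0.13 for progesterone against uninjected. Single-gene values were recomputed only for genes at least 0.5 from the median in the main fit of that comparison, where none was called. This choice favours a stable sign, and the fits without a trend or with the 2 groups alone leave the relative change as it was. Of 648 such values, 9 turned sign. For progesterone against morpholino DMSO, with 1 library left out, the relative change of eif4ebp3l ran from -2.26 to 0.64 (0.66 scaled, without experiment 2) and eif4ebp3 from -0.054 to 1.1 (-0.067 scaled). For progesterone against uninjected, eif2b4 ran from -0.15 to 1.74, eif4ebp3l from -2.77 to 0.13 (0.18 scaled) and EIF2B5 (2 of 2) from -3.85 to 0.99 (1.06 scaled). Depth is unknown, so values listed at 0 have no detection limit.

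Among the columns, only those of the morpholino libraries carry experiment numbers. The labels number the uninjected samples by experiment too, but their columns are named by 5 ng and 10 ng and could not be matched to those numbers. Between the morpholino pairs in DMSO and progesterone, the difference between experiments correlated at 0.0764 across 13145 genes. The numbers were therefore not taken to pair the morpholino libraries. With the replicate block for progesterone against morpholino DMSO, 0 genes and 0 initiation factors were called and the median relative change was 0.00; no block could be fitted with uninjected columns, which carry no number.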
